A study of Mus musculus with 18 samples.

Results

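Wild-type mouse kidneys at 2 weeks of age were compared with wild-type mouse kidneys at 1 week. The comparison rests on 6 of the 18 bulk RNA-seq libraries of a study of the secreted matrix protein ECM1 and the mesangium, the supporting tissue of the glomerulus. The 6 libraries were taken by genotype and age alone, 3 labelled WT at 1 week and 3 labelled WT at 2 weeks, and no measured value entered the choice. The other 12 libraries, 3 in each group, are wild-type kidneys at 4 weeks and Ecm1 knockout (KO) kidneys at 1, 2 and 4 weeks. They entered the fit for the estimate of spread between libraries and are used below only to place the wild-type step. The labels name the tissue as kidney and give genotype and age. They give no strain, sex, treatment or knockout allele, and they do not say that each library came from a separate animal, so each p-value reflects how far these libraries spread, and that spread may be technical.

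The mouse kidney goes on forming nephrons for a short time after birth. Progenitor cells of the cap mesenchyme (marked by Six2 and Cited1) then run out, and the tubules already laid down lengthen and take up their adult work: the proximal tubule recovers most of the filtered glucose, amino acids and phosphate, the loop of Henle and collecting duct set urine concentration, and the glomerulus lays down the adult form of its filter. The fuel of the tubule shifts to fatty acids burned in mitochondria and peroxisomes, and proliferation and matrix deposition decline.

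The progenitor markers of this scheme were already low at 1 week. Six2, the transcription factor that holds progenitors undifferentiated, had at most 2 reads in any wild-type library of either age and was not tested. Cited1, a transcriptional co-regulator of the same cells, stood at 1.79, 1.07 and 2.04 CPM at 1 week and 1.07, 1.14 and 1.21 CPM at 2 weeks (log2 fold change -0.52 ± 0.63, adjusted p = 0.603), with the groups overlapping. These defining markers were thus at or near 0 at both ages and had no fall to show between them.

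Sequencing depth was 16020670 to 21427764 counts per library in these 6, and Ecm1 stood at 42.3, 38.4 and 43.6 CPM at 1 week and 38.7, 51.8 and 54.7 CPM at 2 weeks (log2 fold change 0.22 ± 0.22, adjusted p = 0.502), against a mean of 0.029 CPM in the KO libraries at 1 week and 0.0158 CPM at 2 weeks. CPM is a gene's count scaled to a common library size after normalization by the trimmed mean of M-values (TMM). Fold changes are log2 of 2 weeks over 1 week with their standard errors (SE), and adjusted p is from edgeR's quasi-likelihood test with Benjamini-Hochberg adjustment over all genes tested.

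Several libraries stood apart. In 1-week replicate 3, 11 of 12 hepatocyte markers and all 10 adrenal markers were at their highest of the 6 libraries. The summed hepatocyte markers were 59.4, 198.7 and 990.4 CPM at 1 week and 386.2, 219.7 and 404.2 CPM at 2 weeks, and the summed adrenal markers were 6.32, 6.47 and 424.1 CPM at 1 week and 11.8, 5.88 and 4.41 CPM at 2 weeks, with 5 to 6 of the 10 at 0 in every library except 1-week replicate 3. Without that library, 13 called falls turned into higher values at 2 weeks, among them Alb (albumin), from -5.0 to 2.84, and Star (which admits cholesterol to the mitochondria of steroid cells), from -2.89 to 0.007. None of the 13 is reported below as a fall with age. In 2-week replicate 3 the summed erythroid markers were 2017.0 CPM, against 288.9 and 500.9 CPM in the other 2-week libraries and 1447.0 to 2108.0 CPM at 1 week. Replicate 1 at 2 weeks lay apart on the second principal component of the 6 libraries (48.6, against -34.4 and -27.4 for the other 2-week libraries and -2.48 to 13.4 at 1 week). Of the 1842 genes called higher, 2-week replicate 1 was the highest of its age in 1059 (57.5%) and 2-week replicate 3 the lowest in 1153 (62.6%). By their Y-linked transcripts 1 of 3 libraries was male at 1 week and 2 of 3 at 2 weeks. Without 2-week replicate 1, 531 called rises and 463 called falls lost the call. Without 1-week replicate 3, 462 rises and 396 falls did, and with sex as a covariate 196 and 178.

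Of 14774 genes tested, 3481 (23.6%) were called at an adjusted p under 0.05. Of these, 1842 (12.5% of genes tested) were higher at 2 weeks and 1639 (11.1%) were lower. The falls were the larger changes: 762 genes fell by 2-fold or more and 436 rose as much, and the median size of a called change was 0.94 for falls and 0.63 for rises on the log2 scale. The ranges of the 3 libraries at each age did not overlap for 6168 genes (41.7%), called or not. Leaving out 1-week replicate 1 reduced the calls to 2291 (1141 higher), and leaving out 2-week replicate 2 reduced the lower calls to 1078. On the first principal component, which held 50.4% of the variance, the 1-week libraries lay at -45.4, -33.2 and -40.9 and the 2-week libraries at 52.8, 42.1 and 24.6.

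The balance of rises and falls depended on the scaling. TMM sets the median gene near no change (0.009), whereas with total counts the median of all genes was -0.224 and the calls became 871 higher and 3338 lower. With upper-quartile scaling 42.3% of calls were higher, against 52.9% with TMM, and on log2(FPKM + 1) the calls were 849 higher and 3462 lower. The genes that rose held 25.7%, 28.2% and 28.3% of all counts in the 1-week libraries and 42.8%, 40.2% and 36.4% in the 2-week libraries, whereas the genes that fell went from 12.1%, 11.7% and 11.5% to 5.16%, 5.69% and 6.93%. A rise is therefore a rise relative to the typical gene. In bulk tissue, fewer cells of a type and less RNA per cell cannot be told apart. Unless stated otherwise, each gene given below as having risen or fallen kept its direction and its call in all 17 alternative fits, which leave out each library in turn and change the scaling, the filter, the tool or the samples. No list median given below changed sign in any of them. The lists were chosen with earlier results of these data known, so their counts and medians are description and not a test.

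**Figure D1:**
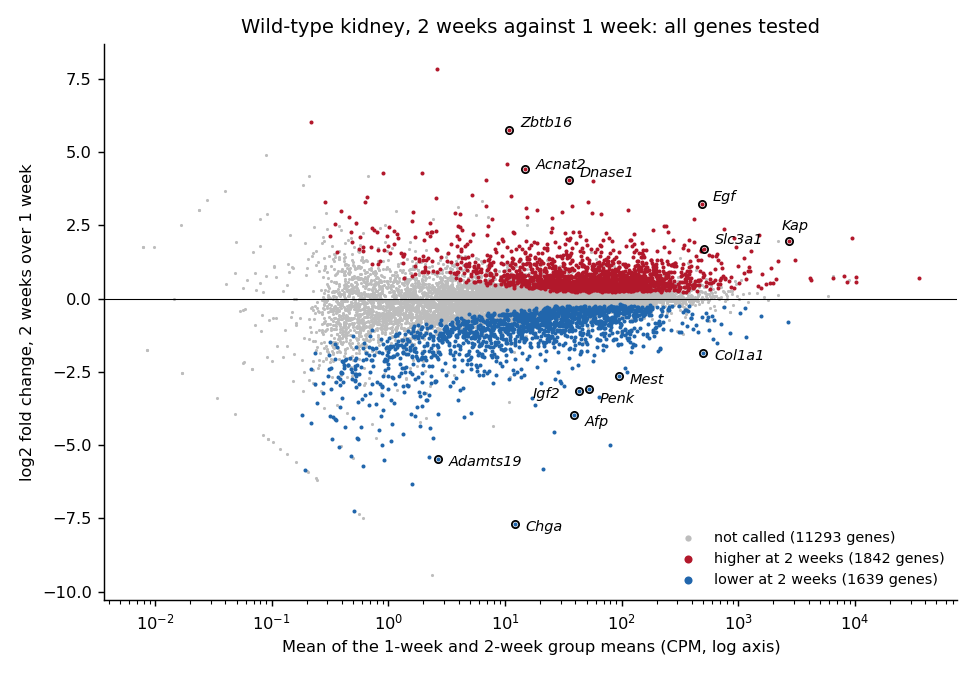
Mean of the 1-week and 2-week group means (CPM, log x axis) against log2 fold change of 2 weeks over 1 week (y axis), 1 point per gene for the 14774 genes tested in wild-type kidney, with 1842 called higher in red, 1639 called lower in blue and the others in grey. Named genes are circled, with Egf, Dnase1 and Slc3a1 among the rises and Igf2, Mest and Col1a1 among the falls, while Chga and Zbtb16 rest largely on 1 library each.

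Among the largest rises that did not rest on 1 library were genes of the adult tubule. Dnase1, which codes for a secreted nuclease, rose from 2.56, 5.4 and 4.28 to 89, 59 and 52.3 CPM (log2 fold change 4.03 ± 0.37, adjusted p = 1.3e-05) and went on to a mean of 609 CPM at 4 weeks. Egf, the growth factor precursor made by the distal tubule, rose from 74.7, 110.2 and 97.5 to 847, 1118 and 662 CPM (log2 fold change 3.22 ± 0.29, adjusted p = 1.17e-05). Acnat2, an acyl-CoA N-acyltransferase gene, rose from 0.916, 1.31 and 1.73 to 35.3, 25 and 23.9 CPM (log2 fold change 4.41 ± 0.54, adjusted p = 6.25e-05). In each of these genes the 2-week libraries lay far above all 1-week libraries. Serpina1f, a serpin gene, followed at 4.05 ± 0.37 on the log2 scale. Among the largest falls were Adamts19, a secreted metalloprotease gene, from 4.72, 6.47 and 4.54 to 0.118, 0 and 0.208 CPM (log2 fold change -5.47 ± 0.61, adjusted p = 0.000106), Fbn2, the fibrillin of fetal microfibrils, from 37.3, 32.7 and 23.5 to 3.02, 1.52 and 4.33 CPM (log2 fold change -3.39 ± 0.34, adjusted p = 1.95e-05), and Hdc, the histamine-forming enzyme, at -3.37 ± 0.38. Penk, an opioid peptide precursor, fell from 96, 97.7 and 87.1 to 5.92, 7.54 and 19.5 CPM (log2 fold change -3.08 ± 0.54, adjusted p = 0.000847). Its 2-week replicate 3 was the highest of the 2-week libraries and still far below every 1-week library.

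For part of these genes 1 library set the size. Zbtb16, a transcriptional repressor gene, had the largest rise of the genes open to naming (5.74 ± 1.33), from 0.366, 0.535 and 0.255 to 56.8, 4.74 and 2.37 CPM, and without 2-week replicate 1 it was 3.17 with an adjusted p of 0.0568. Cyp27b1, which makes active vitamin D, went from 8.25, 6.03 and 5.55 to 231, 22 and 65.2 CPM and back to 25.2 CPM at 4 weeks. Its change of 4.0 was 2.72 without 2-week replicate 1. Chga, a chromaffin cell marker, went from 1.15, 0.389 and 70.9 to 0, 0.142 and 0.166 CPM, and its change of -7.67 was -2.73 without 1-week replicate 3 (adjusted p = 0.133). Hpd, a tyrosine-degrading enzyme gene, had a change of 4.61, which was 7.61 without 1-week replicate 3 and 3.74 without 2-week replicate 1. Afp, alpha-fetoprotein, had a change of -3.97, and -5.38 without 2-week replicate 1. Without 2-week replicate 3 the changes of Adamts19 and Penk were -6.44 and -3.79.

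Many transporter genes of the proximal tubule rose. Of 16 amino acid transporter genes, 15 rose and 0 fell (median 0.99, against 0.009 for all genes), with 10 to 15 rising when 1 library was left out. Slc3a1, the heavy subunit of the cystine transporter, went from 188, 265 and 273 to 986, 755 and 586 CPM (log2 fold change 1.68 ± 0.20, adjusted p = 5.33e-05). Slc6a18 and Slc6a19, carriers of neutral amino acids, changed by 1.18 ± 0.14 and 1.98 ± 0.39. The groups did not overlap in these genes, and 2-week replicate 1 was the highest for Slc3a1 and Slc6a19 but the lowest for Slc6a18. Slc6a20a, the carrier of imino acids such as proline, stood at 6.37, 11.4 and 7.9 CPM at 1 week and 47.4, 40.3 and 35.5 CPM at 2 weeks and at a mean of 21.9 CPM at 4 weeks.

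Of 28 organic ion transporter genes, 17 rose and 0 fell (median 0.86), while 1 fell with total counts and 1 on log2(FPKM + 1). Slc17a1, an apical phosphate and urate carrier, rose from 72.4, 94 and 77.4 to 269.5, 238 and 171 CPM (log2 fold change 1.48 ± 0.16, adjusted p = 2.95e-05). Slc22a6, the basolateral carrier that takes up p-aminohippurate and many drugs, did not pass the test at 159.9, 193 and 153 CPM at 1 week and 79.6, 186 and 147 CPM at 2 weeks (log2 fold change -0.29 ± 0.28, adjusted p = 0.481), although its mean at 4 weeks was 1059 CPM. Its groups overlapped, and 2-week replicate 1 was the lowest of the 6 libraries. Of 12 glucose and phosphate transporter genes, 7 rose (median 0.69, and 4 rises and 1 fall with total counts). Slc34a1, the main phosphate transporter of the brush border, stood at 1031, 1359 and 1359 CPM at 1 week and 2383, 3016 and 2272 CPM at 2 weeks (log2 fold change 1.03 ± 0.17, adjusted p = 0.000601), with every 2-week library above every 1-week library. Slc5a12, a lactate transporter, rose by 2.0 ± 0.34.

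The brush border and the endocytic apparatus were divided. Of 21 genes, 8 rose and 2 fell (median 0.34). The rises were 5 without 1-week replicate 1 and 4 with total counts, and the falls were 1 without 1-week replicate 1, 1-week replicate 2, 2-week replicate 2 or 2-week replicate 3. Alpl, alkaline phosphatase, rose from 79.3, 127 and 109 to 429, 349 and 285 CPM (log2 fold change 1.75 ± 0.19, adjusted p = 2.65e-05), and Slc9a3, the apical sodium-proton exchanger, rose by 1.16 ± 0.21. Anpep, the brush border aminopeptidase N, fell from 457, 491 and 492 to 357, 270.5 and 285 CPM (log2 fold change -0.66 ± 0.12, adjusted p = 0.0011), its 3 libraries at 2 weeks all under those at 1 week. Cubn, the endocytic receptor cubilin, was at 395, 521 and 517 CPM at 1 week and 566, 568 and 523 CPM at 2 weeks (log2 fold change 0.21 ± 0.14, adjusted p = 0.319), and Dab2, its adaptor, had a change of 0.009 ± 0.12 (adjusted p = 0.97). Cubn and Dab2 thus did not pass the test in libraries in which the transporters rose.

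Transcription factors that specify the tubule rose in part. Of 17, 8 rose and 0 fell (median 0.32). The rises were 5 without 1-week replicate 3. With total counts 4 rose and 1 fell, and on log2(FPKM + 1) 4 rose and 2 fell. The median was 0.19 without 2-week replicate 1. Hnf4a, the nuclear receptor that drives proximal tubule maturation, stood at 275, 338 and 354 CPM at 1 week and 644, 677 and 552 CPM at 2 weeks (log2 fold change 0.95 ± 0.14, adjusted p = 0.000275), with every 2-week library above every 1-week library. Maf rose by 0.87 ± 0.17.

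The promoters of these genes were read from RefSeq (GRCm38.p6, 250 bases before the start, both strands), which held 11540 of the 14774 genes tested. The HNF4 form CAAAGTCCA was present in 0.459% of tested genes, 0.68% of the 1471 that rose and 0.489% of the 1226 that fell, and in 3.08% of the 65 genes of the 4 proximal tubule lists with a promoter (2 genes). The HNF1 form GTTAATNAT was present in 0.676% of tested genes, 1.36% of those that rose, 0.489% of those that fell and 3.08% of the 65 (2 genes). Over all 27025 genes with a promoter the shares were 0.451% and 0.866%. The ERR form TCAAGGTCA, searched as well, was present in 0.321% of tested genes, 0.272% of those that rose and 0.326% of those that fell. It was present in 0% of the 65 and in 0.422% of all genes with a promoter. These forms have different letters and were counted apart. The stretch shown was picked by mean CPM among list genes called higher with such a form, under further limits on chromosome and overlap with exons. The HNF4 form, in capitals, lies 39 to 31 bases before the start of Slc3a1 on chr17:85028257-85028346 (plus strand).
Slc3a1: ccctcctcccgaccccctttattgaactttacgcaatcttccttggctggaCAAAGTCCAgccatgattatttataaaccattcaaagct

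Genes of energy metabolism rose. Of 28 peroxisome genes, 20 rose (median 0.82), among them Cat, the peroxide-degrading catalase, from 227, 288 and 273 to 670.2, 715 and 558 CPM (log2 fold change 1.3 ± 0.13, adjusted p = 1.77e-05). Of 23 fatty acid oxidation genes, 16 rose (median 0.54). Acsl1, which activates long-chain fatty acids, rose from 251, 372 and 398 to 1158, 871 and 793 CPM (log2 fold change 1.47 ± 0.23, adjusted p = 0.000376). Neither list had a gene that fell, although 1 peroxisome gene was called lower on log2(FPKM + 1). In Cat and Acsl1 2-week replicate 3 was the lowest of its age and still above all 1-week libraries. Ppara, the nuclear receptor for fatty acids, rose from 5.96, 12 and 15.6 to 52.1, 40.9 and 34.6 CPM (log2 fold change 1.93 ± 0.31, adjusted p = 0.000433), and Ppargc1a, a co-activator of mitochondrial genes, by 0.97 ± 0.19.

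Nuclear genes of the mitochondrion rose by small amounts in nearly every listed member. Of 34 nuclear genes of oxidative phosphorylation, 33 rose and 0 fell (median 0.52), and of 16 citrate cycle genes, 15 rose (median 0.46). The number called moved with the settings. For oxidative phosphorylation it was 20 without 1-week replicate 1 and 12 with total counts, and for the citrate cycle it was 6 without 1-week replicate 1 and 8 without 2-week replicate 2, and 4 with total counts. Sdhb, a subunit of succinate dehydrogenase, rose by 0.77 ± 0.14. Of the 13 genes of the mitochondrial genome, 7 rose, and 0 in a fit to the 6 libraries alone and on log2(FPKM + 1). The number was 3 without 1-week replicate 1, 1-week replicate 3 or 2-week replicate 2, 4 without 1-week replicate 2, 2 without 2-week replicate 1 and 11 without 2-week replicate 3. The share of counts from mitochondrial transcripts was 8.96%, 9.83% and 9.7% at 1 week and 15.2%, 12.8% and 10.1% at 2 weeks, so that replicate 3 at 2 weeks lay close to the 1-week libraries. At 4 weeks it was 20.03% to 21.4%.

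Of 33 genes of amino acid breakdown, 28 rose and 0 fell (median 0.85). Hgd, of tyrosine breakdown, rose from 49.7, 69.8 and 73.2 to 228, 211 and 164 CPM (log2 fold change 1.65 ± 0.18, adjusted p = 2.65e-05), and Cbs, which draws homocysteine toward cysteine, by 2.24 ± 0.32. Of 12 genes of gluconeogenesis and ammonia handling, 10 rose (median 1.18), and 5 without 1-week replicate 1 or 2-week replicate 1. The median was 0.75 without 2-week replicate 1. Pck1, the gate of gluconeogenesis, stood at 1047, 1717 and 1068 CPM at 1 week and 4994, 1838 and 2592 CPM at 2 weeks, and its call (log2 fold change 1.3 ± 0.37, adjusted p = 0.0181) was lost in 5 of the 17 alternative fits. Its highest 2-week library was replicate 1, and replicate 2 at 2 weeks lay close to the highest 1-week library. Of 16 glycolysis genes 6 rose (median 0.29). That number was 1 without 1-week replicate 2, 2 without 1-week replicate 3 and 3 without 2-week replicate 2, and 0 with total counts. In cholesterol synthesis, 0 of 22 rose and 3 fell (median -0.25), beside 12.5% and 11.1% of all genes tested. Without 1-week replicate 2 or 2-week replicate 1 the number of falls was 1, with medians of -0.13 and -0.11. Dhcr7, the enzyme of the last step, was among the 3 (log2 fold change -0.9 ± 0.20).

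Of 29 genes of drug and steroid metabolism, 17 rose and 0 fell (median 1.17), while 1 fell with total counts and 1 in the fit to the 6 libraries alone. Ugt3a2, a glycosyltransferase gene, went from 59.7, 85.8 and 72.2 to 529, 394 and 298 CPM (log2 fold change 2.49 ± 0.22, adjusted p = 1.17e-05) and to 1985 CPM at 4 weeks. Cyp2d26 and Cyp2j5, cytochrome P450 genes, rose by 2.26 ± 0.24 and 1.45 ± 0.17, and Gstm1, a glutathione transferase gene, by 1.25 ± 0.14. Every 2-week library was above every 1-week library in these genes.

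**Figure D2:**
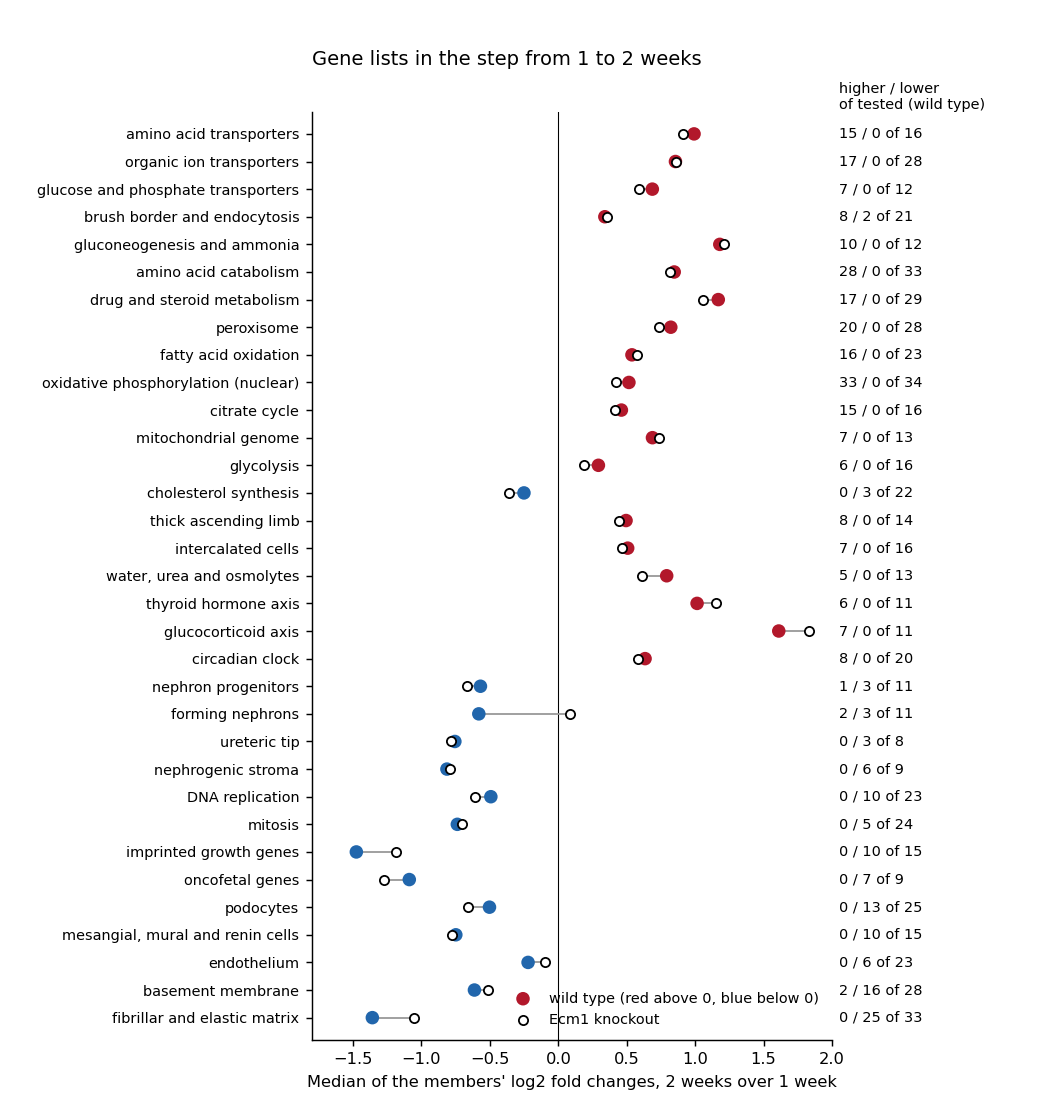
Median log2 fold change of 2 weeks over 1 week (x axis) over the tested members of each gene list (y axis), with wild type as a filled circle (red above 0, blue below) and Ecm1 knockout as an open circle, and at the right how many members were called higher and lower in wild type. Transporter, metabolic and hormone lists lie above 0, except cholesterol synthesis, and the lists of forming tissue, growth, glomerulus and matrix lie below 0 in wild type.

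Genes of the glucocorticoid and thyroid hormone axes rose in part. Of 11 genes of the glucocorticoid axis, 7 rose and 0 fell (median 1.61; 5 to 8 rose with 1 library left out). Errfi1, a feedback inhibitor of the EGF receptor, rose from 60.3, 61.9 and 87.9 to 520.3, 279 and 368 CPM (log2 fold change 2.47 ± 0.38, adjusted p = 0.000305). Hsd11b1, which regenerates active glucocorticoid inside cells, rose from 3.21, 4.08 and 4.84 to 15.6, 21.7 and 20.6 CPM (log2 fold change 2.26 ± 0.32, adjusted p = 0.000179). Sgk1, the kinase through which corticosteroids act on sodium transport, rose from 155, 127 and 98.5 to 428, 336 and 385 CPM (log2 fold change 1.59 ± 0.30, adjusted p = 0.00153). In these genes all 2-week libraries exceeded all 1-week libraries, and replicate 1 at 2 weeks was the highest for Errfi1 and Sgk1 but the lowest for Hsd11b1. Fkbp5, a glucocorticoid-induced chaperone gene, was at 20.2, 23 and 23.9 CPM at 1 week and 146, 31 and 29 CPM at 2 weeks (adjusted p = 0.0714), most of its rise lying in 2-week replicate 1. The mean difference of the list from the 1-week mean was 2.22 in that library and 1.03 and 1.17 in the other 2-week libraries, on the log2 scale.

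Of 11 genes of the thyroid hormone axis, 6 rose (median 1.01), and 5 with any 1 library left out. The median was 0.28 to 1.21 over the alternative fits. Dio3, a deiodinase gene, was among the 6, and 13 of the 17 alternative fits did not call it. Thrb, a thyroid hormone receptor, stood at 12.6, 15.6 and 14.2 CPM at 1 week and 29.4, 38.1 and 29.2 CPM at 2 weeks (log2 fold change 1.19 ± 0.16, adjusted p = 0.000136). Klf9, a factor induced by both hormones, rose from 62.6, 69.7 and 60.0 to 359.6, 168 and 183 CPM (log2 fold change 1.88 ± 0.33, adjusted p = 0.000821), and Dio1, the deiodinase that makes the active hormone, by 1.64 ± 0.37. Replicate 1 at 2 weeks was again the highest for Klf9 and not for Thrb. The other hormone lists were mixed, with 2 higher and 2 lower of 9 genes of renin and angiotensin (1 higher without 1-week replicate 1, 1-week replicate 3, 2-week replicate 1 or 2-week replicate 2, and 1 lower without 1-week replicate 3, 2-week replicate 1 or 2-week replicate 3), 2 higher and 1 lower of 6 of vitamin D and phosphate hormones, and 4 higher and 1 lower of 21 of the growth hormone and IGF axis (1 higher without 1-week replicate 1, 2 without 1-week replicate 3 or 2-week replicate 2, and 0 with total counts). Of 20 clock genes, 8 rose and 0 fell (median 0.63, and 0.36 without 2-week replicate 1). Hlf, an output factor of the clock, rose from 22.1, 34.1 and 30.7 to 112, 114 and 81 CPM (log2 fold change 1.82 ± 0.19, adjusted p = 2.42e-05), and Per1, a clock repressor that glucocorticoids also induce, from 25.7, 31.7 and 31.9 to 192, 77.9 and 104 CPM (log2 fold change 2.07 ± 0.39, adjusted p = 0.00139). Per1 was highest in 2-week replicate 1. The hour at which kidneys were taken is not in the labels. Cirbp and Rbm3, which mark cooling, had no common direction at 2 weeks: Cirbp stood at 50.2, 54.8 and 38.9 CPM at 1 week and 109, 12.6 and 23 CPM at 2 weeks and Rbm3 at 245, 260.0 and 281 CPM at 1 week and 421, 176 and 244 CPM at 2 weeks, the 2-week replicate 1 being the highest and the other 2-week libraries lower than all 1-week libraries.

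**Figure D3:**
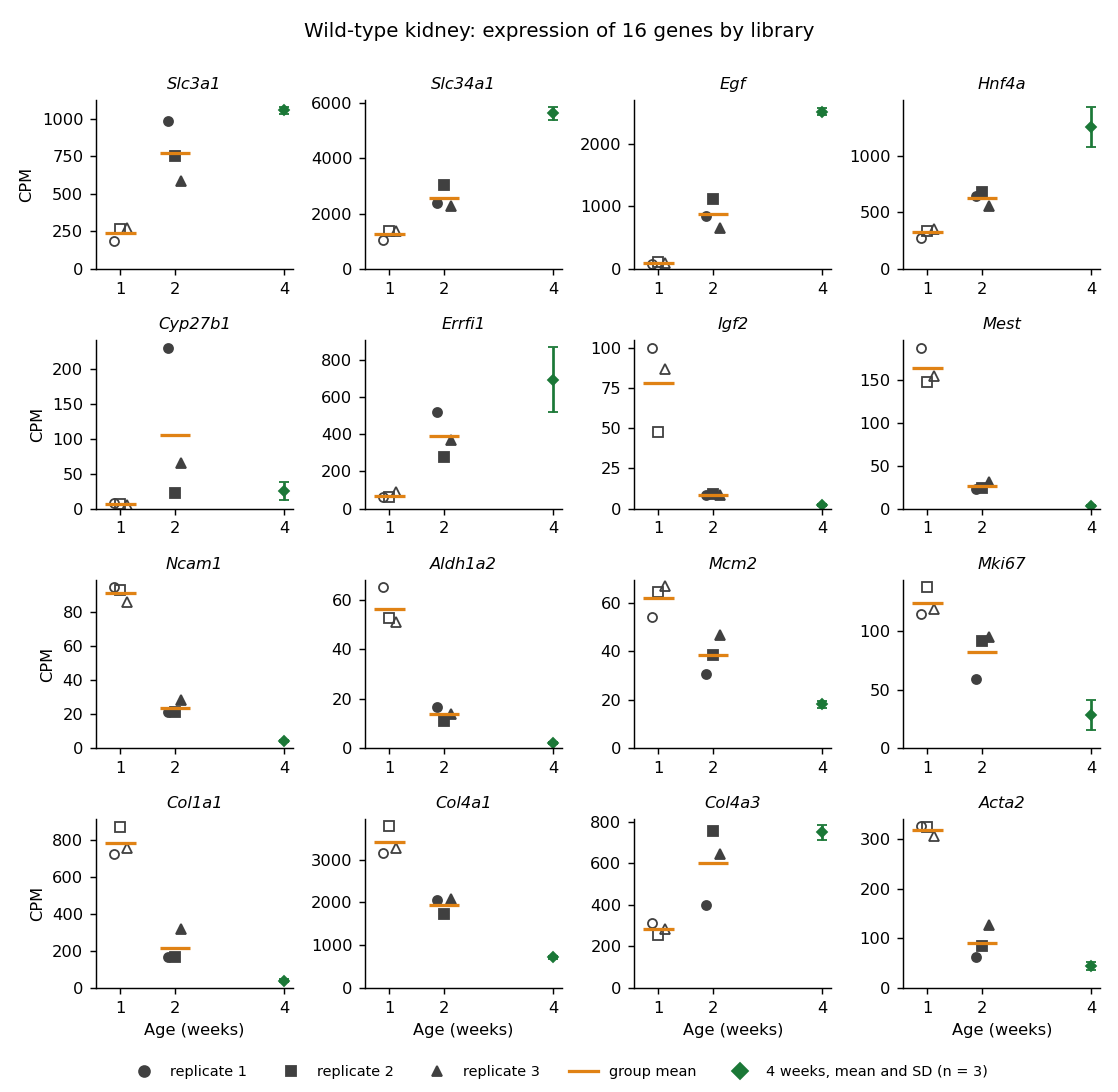
CPM (y axis, linear, from 0) at 1, 2 and 4 weeks (x axis) for 16 genes in wild-type kidney, 1 panel per gene, with 1 symbol per library and the group mean as an orange line at 1 week (open symbols) and 2 weeks (filled), and the mean and SD of 3 libraries in green at 4 weeks. Slc3a1, Slc34a1, Egf and Hnf4a lie higher in all 2-week libraries than in any 1-week library, Igf2, Mest, Ncam1 and Aldh1a2 lie lower, and Cyp27b1 is spread widely at 2 weeks.

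Genes of the distal segments rose in part. Of 14 thick ascending limb genes, 8 rose (median 0.49). The number was 5 without 1-week replicate 1, and 4 with 1 fall with total counts. Umod, uromodulin, the main protein of normal urine, stood at 596, 933 and 862 CPM at 1 week and 1448, 1918 and 1698 CPM at 2 weeks (log2 fold change 1.08 ± 0.20, adjusted p = 0.00116), and Slc12a1, the furosemide-sensitive cotransporter, rose by 0.83 ± 0.14. Of 18 distal convoluted and connecting tubule genes, 4 rose and 1 fell (median 0.28, and 0.17 without 2-week replicate 2). Trpm6, the magnesium channel, rose by 1.18 ± 0.20, whereas Slc12a3, the thiazide-sensitive cotransporter that defines the segment, was at 222, 316 and 265 CPM at 1 week and 429, 343 and 279 CPM at 2 weeks (adjusted p = 0.211). Its groups overlapped.

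Of 12 principal cell genes 2 rose, beside 12.5% of all genes tested, and with total counts 1 rose and 2 fell. Scnn1a, a subunit of the epithelial sodium channel, was among the 2 and rose by 1.09 ± 0.20. Aqp2, the vasopressin-regulated water channel of these cells, did not pass the test at 236, 101 and 167 CPM at 1 week and 180.1, 334 and 366 CPM at 2 weeks (log2 fold change 0.8 ± 0.32, adjusted p = 0.082). Its 2-week replicate 1 lay inside the 1-week range and the other 2-week libraries above it. Of 16 intercalated cell genes, 7 rose (median 0.51), including Atp6v0a4, a proton pump subunit, by 1.1 ± 0.17 and Slc26a4, the anion exchanger pendrin, by 1.17 ± 0.21. The number of rises was 4 without 1-week replicate 1, 1-week replicate 2, 1-week replicate 3 or 2-week replicate 1, and 3 with total counts.

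Of 13 genes of water, urea and osmolyte handling, 5 rose (median 0.79; 3 without 1-week replicate 1). Aqp1, the water channel of the proximal tubule and descending limb, rose from 421, 506 and 483 to 1031, 938 and 933 CPM (log2 fold change 1.04 ± 0.11, adjusted p = 2.74e-05). Slc14a2, the urea transporter of the inner medulla, went from 76.2, 83.9 and 97.5 to 114, 303 and 265 CPM (log2 fold change 1.41 ± 0.34, adjusted p = 0.00686). Akr1b3, the sorbitol-forming aldose reductase, stood at 213, 43.3 and 89.8 CPM at 1 week and 37.3, 299 and 432 CPM at 2 weeks and did not pass. Slc14a2 and Akr1b3 were lowest at 2 weeks in replicate 1, in which Akr1b3 lay below every 1-week library. Among 15 tight junction genes, 2 rose and 3 fell, beside 12.5% and 11.1% of all genes tested, and 5 fell with total counts. Cldn2, the claudin of the leaky proximal tubule, rose from 346, 423 and 443 to 728, 773 and 730.3 CPM (log2 fold change 0.88 ± 0.12, adjusted p = 0.000135), and Cldn6, a claudin of embryonic epithelia, fell from 60.5, 42.6 and 41.4 to 11.7, 5.02 and 8.74 CPM (log2 fold change -2.51 ± 0.34, adjusted p = 0.000118).

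Genes of forming tissue fell in part. Of 11 nephron progenitor genes tested, 1 rose and 3 fell (median -0.57). The rise was that of Crym, a thyroid hormone-binding protein, and 15 of the 17 alternative fits did not call it. With total counts 5 fell, and without 2-week replicate 3 the median was -0.86. Itga8, an integrin gene known from the cap mesenchyme, stood at 156, 184 and 170.2 CPM at 1 week and 76.9, 84.4 and 94.2 CPM at 2 weeks (log2 fold change -1.0 ± 0.18, adjusted p = 0.000875), and Hoxd11, a patterning factor of the metanephros, fell by 1.52 ± 0.32. Six2 and Cited1 were already low at 1 week, and which cells carried the Itga8 and Hoxd11 transcripts was not tested. Of 11 genes of forming nephrons, 2 rose and 3 fell (median -0.58). The rises were 1 without 1-week replicate 2, 1-week replicate 3, 2-week replicate 1 or 2-week replicate 2 and 0 with total counts. Ncam1, an adhesion molecule of early nephrons and stroma, fell from 94.5, 93.1 and 86.1 to 21.3, 21.5 and 28.5 CPM (log2 fold change -1.94 ± 0.19, adjusted p = 1.95e-05). The 2-week libraries of Ncam1 lay close together and far below the 1-week libraries.

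Of 8 ureteric tip genes, 3 fell (median -0.76; 1 without 1-week replicate 1 or 2-week replicate 2), including Wnt11, a secreted signal of the branching tip, from 19, 25.6 and 19.2 to 13.7, 7.16 and 10.6 CPM (log2 fold change -1.03 ± 0.22, adjusted p = 0.00337). Of 9 genes of the nephrogenic stroma, 6 fell and 0 rose (median -0.81; 4 to 7 with 1 library left out). Aldh1a2, which makes retinoic acid in cortical stroma, fell from 65, 52.8 and 51.1 to 16.5, 11.2 and 13.9 CPM (log2 fold change -2.02 ± 0.24, adjusted p = 4.79e-05), and Meis1, a stromal homeobox factor, fell by 1.44 ± 0.26. Falls thus took 6 of 9 stromal genes, beside 11.1% of all genes tested.

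Cell division genes were lower, and how many were called depended on the fit. All 23 DNA replication genes had negative fold changes and 10 were called (median -0.49). That number was 4 without 1-week replicate 2, 1-week replicate 3 or 2-week replicate 1 and 5 without 2-week replicate 2, and 13 with total counts. Mcm2, a subunit of the replicative helicase, fell from 54.1, 64.4 and 67.2 to 30.7, 38.6 and 46.9 CPM (log2 fold change -0.68 ± 0.16, adjusted p = 0.00587), and Mcm3, of the same helicase, fell by 0.93 ± 0.23. All 24 mitosis genes were negative as well, with 5 called (median -0.74). That number was 2 without 1-week replicate 3, 1 without 2-week replicate 1 and 3 without 2-week replicate 2, but 12 with DESeq2, 13 with total counts, and 18 with sex as a covariate or on log2(FPKM + 1). Mki67, the common marker of cycling cells, was at 115, 138 and 119.5 CPM at 1 week and 59.6, 91.7 and 95.5 CPM at 2 weeks (log2 fold change -0.59 ± 0.33, adjusted p = 0.206), and Cenpa, the histone of centromeres, fell from 10.9, 11.8 and 13.8 to 6.93, 5.02 and 8.53 CPM (log2 fold change -0.83 ± 0.18, adjusted p = 0.00393). For Mki67 all 2-week libraries were below all 1-week libraries, but replicates 2 and 3 at 2 weeks lay much nearer to them than replicate 1. The spread among 2-week libraries was wide over the DNA replication list: the mean difference from 1 week was -0.97 in replicate 1, -0.51 in replicate 2 and -0.29 in replicate 3.

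Promoter forms known from cell cycle genes were searched in the same RefSeq windows. CCAATCA, bound by NF-Y, was present in 11% of tested genes, in 9.05% of those that fell, and in 33.3% of the 39 DNA replication and mitosis genes with a promoter (13 genes). The short CHR form TTTGAA was present in 13.2%, 13.0% and 28.2% (11 genes) of these sets, the E2F form TTCCCGCC in 3.85%, 4.32% and 5.13% (2 genes), and the other E2F form TTTGGCGC in 0.832%, 0.734% and 5.13% (2 genes). In the 65 genes of the proximal tubule lists, CCAATCA was present in 15.4% (10 genes) and TTTGAA in 24.6% (16 genes). TTCCCGCC was present there in 1.54% and TTTGGCGC in 0%. Over all 27025 genes with a promoter the shares were 8.38%, 18.3%, 2.13% and 0.485% in the same order. These 4 forms have different letters and were counted apart, on both strands. Stretches of 3 list genes called lower were picked by mean CPM in the same way, under the same limits on chromosome and exons. Each is 90 bases long on GRCm38.p6, with the form in capitals: TTCCCGCC for Rrm1, a subunit of ribonucleotide reductase (chr7:102441587-102441676, plus strand), TTTGAA for Mcm2 (chr6:88898803-88898892, minus strand) and CCAATCA for Mcm3 (chr1:20820313-20820402, minus strand). Rrm1, shown for its promoter form, changed by -0.49 ± 0.16 on the log2 scale (adjusted p = 0.0358), a call lost in 5 of the 17 alternative fits.
Rrm1: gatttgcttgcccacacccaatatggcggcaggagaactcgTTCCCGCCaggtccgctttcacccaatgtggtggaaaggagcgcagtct
Mcm2: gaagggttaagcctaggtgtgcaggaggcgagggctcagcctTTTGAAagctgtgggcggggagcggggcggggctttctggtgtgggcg
Mcm3: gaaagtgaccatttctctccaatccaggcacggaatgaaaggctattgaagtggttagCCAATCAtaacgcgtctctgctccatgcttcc

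Imprinted and oncofetal growth genes fell. Of 15 imprinted growth genes tested, 10 fell and 0 rose (median -1.48; 8 to 11 with 1 library left out). Igf2, the fetal insulin-like growth factor, fell from 99.8, 47.8 and 86.8 to 8.65, 9.29 and 8.32 CPM (log2 fold change -3.16 ± 0.26, adjusted p = 4.66e-06). Mest, a hydrolase-like gene expressed from the paternal copy, fell from 188, 148 and 155 to 23.1, 23.8 and 30.9 CPM (log2 fold change -2.65 ± 0.19, adjusted p = 4e-06). Grb10, an adaptor that restrains insulin and IGF signalling, fell from 218, 201 and 217 to 83.8, 88.1 and 101 CPM (log2 fold change -1.22 ± 0.09, adjusted p = 4.66e-06), and Cdkn1c, a cell cycle inhibitor that restrains growth, fell by 1.72 ± 0.32. Genes known to promote growth and genes known to restrain it thus fell together, and in all 4 every 2-week library lay below every 1-week library. Igf2r, the receptor that clears IGF2, did not pass (log2 fold change -0.22 ± 0.15, adjusted p = 0.318). Of 9 oncofetal genes, 7 fell (median -1.09). Hmga2 and Sox11, nuclear factors of embryonic cells, had log2 fold changes of -2.29 ± 0.38 and -2.24 ± 0.31. Igf2bp3, an RNA-binding protein of fetal tissue, fell by 1.94 ± 0.35.

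In the glomerulus, podocyte genes fell in part. Of 25 podocyte genes, 13 fell and 0 rose (median -0.5; 8 without 1-week replicate 1). Kirrel, which codes for the slit diaphragm protein NEPH1, fell from 109, 116 and 95.5 to 59.9, 48.5 and 57.4 CPM (log2 fold change -0.95 ± 0.17, adjusted p = 0.00109), and Foxc2, a podocyte transcription factor, fell by 1.14 ± 0.21. Nphs1, which codes for nephrin of the slit diaphragm, was added after its values were seen. It stood at 80.8, 77.6 and 63.6 CPM at 1 week and 61.7, 54.4 and 40.7 CPM at 2 weeks (log2 fold change -0.5 ± 0.17, adjusted p = 0.0375), a call that 6 of the 17 alternative fits did not give. All its 2-week libraries were below the 1-week libraries.

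Of 15 genes of mesangial, mural and renin cells, 10 fell and 0 rose (median -0.75; 6 without 1-week replicate 1 or 2-week replicate 1 and 5 without 2-week replicate 2). Acta2, smooth muscle actin, fell from 326, 325 and 307 to 62.3, 84.8 and 128 CPM (log2 fold change -1.8 ± 0.31, adjusted p = 0.000708), and Ptn, the growth factor pleiotrophin, from 81.9, 52.6 and 55.7 to 12.4, 10.8 and 13.5 CPM (log2 fold change -2.37 ± 0.19, adjusted p = 4.66e-06). Ren1, renin, was at 350.5, 313 and 193 CPM at 1 week and 111, 213 and 297 CPM at 2 weeks and did not pass (adjusted p = 0.399), its groups overlapping. Agtr2, the angiotensin II receptor best known from fetal life, fell by 2.61 ± 0.37 and Agt, the precursor of angiotensin, rose by 1.59 ± 0.23. Of 23 endothelial genes, 6 fell (median -0.22, and -0.051 without 2-week replicate 1; 10 fell with total counts). Cdh5, the cadherin of endothelial junctions, fell from 189, 173 and 184 to 109.5, 115 and 115 CPM (log2 fold change -0.68 ± 0.10, adjusted p = 0.000182), and Pecam1, the pan-endothelial adhesion molecule, had a change of -0.15 ± 0.09 (adjusted p = 0.212).

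Interstitial matrix genes fell. All 33 fibrillar and elastic matrix genes had negative fold changes, and 25 were called (20 to 26 with 1 library left out), with a median of -1.36. Mfap4, a microfibril protein, fell from 54.4, 56 and 60.9 to 6.75, 7.16 and 7.78 CPM (log2 fold change -2.98 ± 0.29, adjusted p = 1.77e-05), and Thbs2, a matricellular thrombospondin, from 159, 206 and 171 to 23.9, 30.2 and 50.3 CPM (log2 fold change -2.36 ± 0.25, adjusted p = 2.65e-05). Col1a1, the main chain of type I collagen, was added after its values were seen and stood at 721, 869 and 754 CPM at 1 week and 168, 168 and 317 CPM at 2 weeks (log2 fold change -1.84 ± 0.33, adjusted p = 0.001), reaching 40.3 CPM at 4 weeks. In Col1a1 and Thbs2 replicate 3 was the highest of the 2-week libraries. Sparc, a collagen-binding matricellular protein, did not pass (adjusted p = 0.0505).

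Basement membrane genes did not move one way. Of 28, 16 fell and 2 rose (median -0.61). Type IV collagen of the glomerulus changes in development from a network of the chains made by Col4a1 and Col4a2 to one of the chains made by Col4a3, Col4a4 and Col4a5. Col4a1 fell from 3150.0, 3789 and 3284 to 2056, 1720.0 and 2081 CPM (log2 fold change -0.8 ± 0.14, adjusted p = 0.000598). Col4a2, Col4a3 and Col4a4 were added after their values were seen: Col4a2 fell by 0.58 ± 0.14, Col4a3 rose from 312, 255 and 286 to 398, 756 and 647 CPM (log2 fold change 1.08 ± 0.20, adjusted p = 0.00139), and Col4a4 had a change of 0.64 ± 0.16 (adjusted p = 0.00871), a call lost with total counts and on log2(FPKM + 1). Col4a5 did not pass the test. The 2-week libraries of Col4a3 all lay above the 1-week libraries, with replicate 1 the nearest to them. On the per-length scale, Col4a1 had a mean of 788 ± 56 FPKM (SD, n = 3) at 1 week and 389 ± 60 FPKM at 2 weeks, and Col4a3 had 40.9 ± 5.0 and 74.2 ± 26.1 FPKM. Col4a1 transcripts thus remained the more abundant in bulk kidney. These values do not separate the glomerulus from the rest of the kidney. Among laminins, Lama1, an alpha chain of the early nephron, fell by 1.22 ± 0.16. Hmcn1, a large basement membrane protein, fell from 167, 217 and 178 to 41, 21.5 and 37.7 CPM (log2 fold change -2.49 ± 0.35, adjusted p = 0.000171).

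Of 19 macrophage genes, 1 rose and 2 fell (0 rose without 2-week replicate 1, 1 fell without 1-week replicate 1, and 5 fell with total counts), beside 12.5% and 11.1% of all genes.

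**Figure D4:**
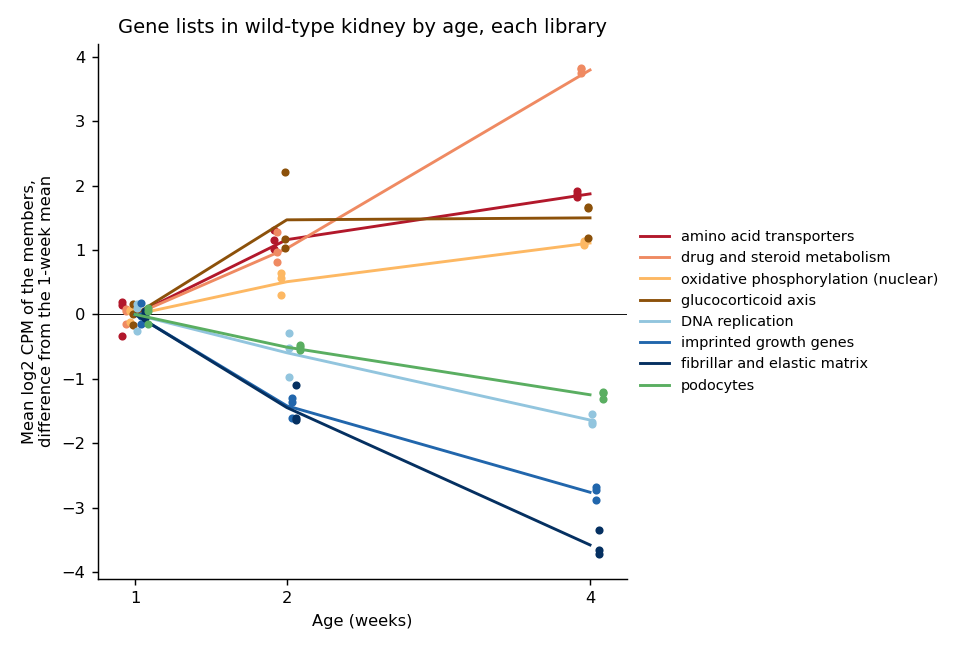
Mean log2 CPM over the members of 8 gene lists as a difference from the 1-week mean (y axis) in wild-type kidney at 1, 2 and 4 weeks (x axis), with 1 point per library and a line through the group means. Fibrillar matrix lies at -1.61, -1.63 and -1.09 at 2 weeks and at -3.73, -3.35 and -3.66 at 4 weeks, while the glucocorticoid list is highest in 1 of the 2-week libraries.

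Values at 4 weeks place the step in the longer course. From 2 to 4 weeks, 7138 genes (48.3%) were called in wild-type kidney, and the 2 steps share the 2-week libraries. By Y-linked transcripts all 3 wild-type libraries at 4 weeks were male. In the test of the second step against the first, 1250 genes (8.46%) were called, 546 with a positive and 704 with a negative difference of second minus first step. Some genes changed mainly in the second step. Ugt2b38, a glucuronosyltransferase gene, had means of 1.47, 1.2 and 973 CPM at 1, 2 and 4 weeks (difference of steps 9.96 ± 1.07), and Treh, which splits trehalose at the brush border, 0.664, 1.36 and 116 CPM (5.42 ± 0.66). Adamts12, a metalloprotease gene, stood at 36.5, 39.8 and 2.72 CPM (-4.0 ± 0.44). Slc6a20a rose in the first step and was called lower in the second (log2 fold change -0.905 ± 0.199, adjusted p = 0.00154). Its difference of steps was -3.17 ± 0.33. Over the lists, drug and steroid metabolism reached 0.82 to 1.28 above the 1-week mean at 2 weeks and 3.76 to 3.82 at 4 weeks on the log2 scale, whereas amino acid transporters reached 1.01 to 1.31 and 1.83 to 1.92.

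The same step in Ecm1 KO kidney called 2881 genes (19.5%), 1527 higher and 1354 lower. It shares no library with the wild-type step. Of the 3481 genes called in wild type, 3466 had the same sign in KO and 2401 were also called, which is 69.0% of the wild-type calls and 83.3% of the KO calls, and none was called the other way. Of the genes not called in wild type, 80.2% had the same sign in KO. Amino acid transporters counted 13 rises of 16 in KO (median 0.91), fibrillar and elastic matrix 20 falls of 33 (median -1.05), podocytes 16 falls of 25 (median -0.66) and the glucocorticoid axis 8 rises of 11 (median 1.83). For forming nephrons the median was -0.58 in wild type and 0.085 in KO, a difference that was not tested over the list. The test of the difference between the KO and the wild-type step called 0 genes (0.0%) with edgeR, 127 at an unadjusted p under 0.05, and 2 with DESeq2. A p that misses the threshold does not show that the steps were the same. By Y-linked transcripts the KO libraries were all female at 1 week and all male at 2 weeks, so that within KO sex and age cannot be told apart, and with sex as a covariate 1469 genes were called in the KO step.

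At 2 weeks the libraries of the genotypes deviated together by number. In a fit of replicate number across both genotypes, 3309 genes were called at 2 weeks, against 3 at 1 week and 7 at 4 weeks. The mitochondrial share of counts in KO at 2 weeks was 14.2%, 13.3% and 11.8%, in the same order as in wild type. What the numbers stand for is not in the labels.

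**Figure D5:**
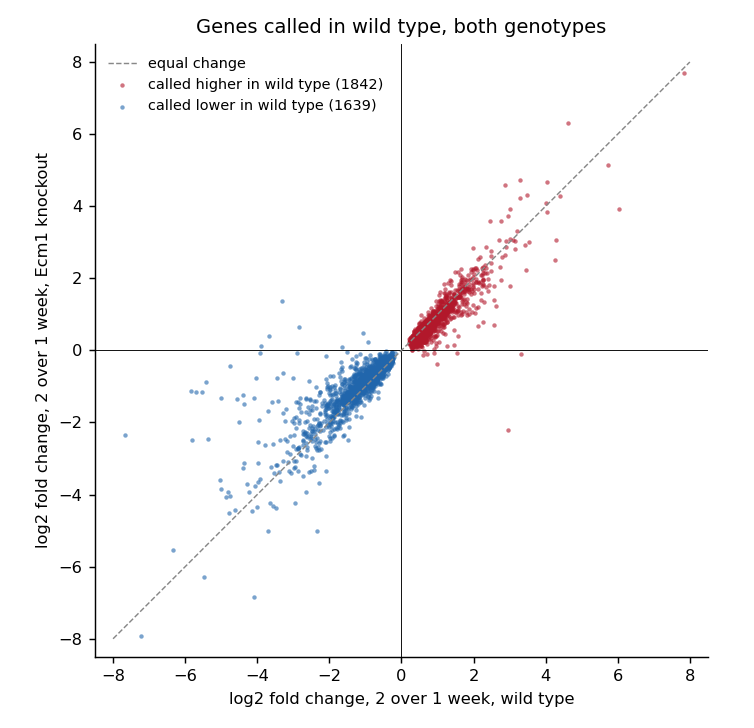
Log2 fold change of 2 weeks over 1 week in wild-type (x axis) against Ecm1 KO kidney (y axis), 1 point per gene called in wild type, red for the 1842 called higher and blue for the 1639 called lower, with a dashed line of equal change. Of the 3481 genes, 3466 lie in the quadrants of equal sign.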

How the data were processed

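Kidney RNA (mRNA captured on beads and sequenced on an Illumina NovaSeq X Plus, per the labels' protocols) was quantified by the submitters, whose processing notes name fastp, HISAT2 2.1.0, Bowtie2, RSEM and StringTie 1.3.1. Neither these notes nor the labels give a build, an annotation or a strand setting, and overlapping or antisense genes cannot be told apart. The authors deposited expected counts (6.86% to 8.44% of all values in a library not whole, zeros included), which were rounded here, and FPKM values, used only for per-length levels and as an alternative. The table held 22063 genes and 0 rows without a gene. The members and gene lists were chosen with earlier results of these data known.

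Genes passing edgeR's filterByExpr (14774) were fitted with edgeR 4.0.16 (R 4.3.3): TMM scaling, 6 group means over all 18 libraries (12 residual degrees of freedom), quasi-likelihood F test of wild type at 2 against 1 week, Benjamini-Hochberg adjustment, called under 0.05. SE is the log2 fold change over the square root of F. The pipeline was tested on simulated data. Principal components used log2 CPM with a prior count of 2. Alternatives were DESeq2 1.42.0, limma 3.58.1 on log2(FPKM + 1) and log2(FPKM + 0.1) for genes of at least 0.1 FPKM, other scalings and filters, the 6 libraries alone, sex, a replicate block and each library left out.

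The text names the 12 largest called rises and falls of at least 5 CPM without overlap, any member of lists of up to 16 genes, and from longer lists the 6 called with the smallest p and the 3 uncalled with the highest CPM. The 6 genes in each direction whose steps differed most, Cirbp, Rbm3 and clock genes were also open to naming. Promoters came from RefSeq, GRCm38.p6, as windows of 250 bases before and 50 after the start, of which the 250 before it were searched.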

Additional observations from a re-analysis of the deposited data

How the results depend on the processing

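With 3 libraries a group, calls depended on single libraries and on scaling. The 3481 calls ranged from 2291 to 3451 when 1 library was left out, the 1842 higher from 1141 to 1872 and the 1639 lower from 1078 to 1579. With total counts 871 were higher and 3338 lower, on log2(FPKM + 1) 849 and 3462, and on log2(FPKM + 0.1) 833 and 3088. Changes of 2-fold or more numbered 1198, and 677 on log2(FPKM + 1). Of the 3481 calls, 2510 kept call and direction with total counts, 3462 with DESeq2, 3107 with sex as a covariate and 2538 in a fit to the 6 libraries. The cause of these moves was not tested. The KO step called 2881 genes, and 1469 with sex as a covariate. The difference of the KO and wild-type steps called 0 genes, and 2 with DESeq2. Same-numbered libraries of the 2 ages did not deviate together (correlations -0.106, -0.148 and -0.0607). Deviations from a mean of 3 libraries constrain one another, so these correlations cannot decide whether the numbers pair the libraries. With the replicate block 1888 genes were higher and 1731 lower (3619). No sample correlated best with its own number. With 1 library left out the log2 fold change ranged from -6.18 to 2.84 for Alb and from -3.41 to 0.007 for Star, turning positive without 1-week replicate 3, and that of Cirbp became -1.43 with both 2-week libraries numbered 1 left out. None of the 34 list medians given changed sign in the 17 alternatives. DESeq2 gave no p-value for Star, and Chga did not pass the filters of 2 fits.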
